A study of Mus musculus with 2 samples.

Results

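The liprin genes encode scaffold proteins. Ppfia1, Ppfia2, Ppfia3 and Ppfia4 code for the liprin-α family, and Ppfibp1 and Ppfibp2 for the liprin-β family. The 6 genes were chosen by measured values, since earlier results on exon inclusion in these libraries were known when they were picked, so their changes are given as a description. They are 6 of the 22380 protein-coding genes of the annotation. Their exons were found as the exon trios of the SpliceTrap database, a middle exon with the exons on its upstream and downstream sides, that lie within the mm9 span of each gene on its strand. This gave 221 trios of the 228333 in the series. A trio needed 20 reads or more in each library to be used, which 184 liprin trios and 145628 trios in all had. Of the 37 liprin trios below this minimum, 36 belonged to Ppfia4 and 1 to Ppfia2.

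RNA was sequenced from N2A cells, a mouse neuroblastoma line, in 2 libraries. The control library came from cells transfected with the control shRNA (shControl), and the knockdown library from cells transfected with an shRNA against Ptbp1 (shptbp1), and both were collected 3 days after transfection. The labels name no other allele or agent that separates the groups, and the shRNA was carried by transiently transfected DNA in 1 cell line. With 1 library in each group no difference could be set against a spread between replicates, and no p-value is given.

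Liprin-α proteins bind LAR-type receptor tyrosine phosphatases, ERC/ELKS proteins, RIM proteins and CASK, and are best known for organizing the presynaptic active zone and the cortical complexes near focal adhesions. Liprin-β proteins bind liprin-α. PTBP1, the polypyrimidine tract binding protein, binds pyrimidine-rich RNA and commonly represses nearby exons. Neurons express its paralog PTBP2 instead, and many short neuronal exons are skipped in cells rich in PTBP1.

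In the knockdown library 5 liprin exons were included more often than in the control library, by 27.5 to 51.7 points of percent spliced in (PSI). PSI is the share, as corrected by SpliceTrap, of transcripts with both flanking exons of a trio that include its middle exon. They were 3 exons of Ppfia1, of 30, 75 and 27 nt, an exon of 27 nt in Ppfia3 and an exon of 33 nt in Ppfibp2. All 5 had a length divisible by 3, as had 65% of the 898 exons of all genes that rose by the same rule, given below. All 5 lay wholly in coding sequence of at least 1 annotated transcript. Ppfia2 and Ppfibp1 also have exons of this length, and these changed by 7.1 points at most. Of the 151 distinct liprin exons measured, 131 (86.8%) had a PSI above 95 in both libraries.

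The exons that carry these results are shown 5′ to 3′ on the strand of the gene, with the exon in capitals, 80 bases of the intron before it and 15 bases of the intron after it (mm9). The first 5 are those named above, so that their upstream introns can be compared with those of the 4 short exons that follow. Of these 4, the later Ppfia2 exon also rose, by 7.1 points, a change within the counting error.
Ppfia1, 30 nt, chr7:151688772-151688801, minus strand: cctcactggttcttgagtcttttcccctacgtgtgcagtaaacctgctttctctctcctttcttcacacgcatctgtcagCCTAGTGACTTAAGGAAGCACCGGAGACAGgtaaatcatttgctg
Ppfia1, 75 nt, chr7:151700777-151700851, minus strand: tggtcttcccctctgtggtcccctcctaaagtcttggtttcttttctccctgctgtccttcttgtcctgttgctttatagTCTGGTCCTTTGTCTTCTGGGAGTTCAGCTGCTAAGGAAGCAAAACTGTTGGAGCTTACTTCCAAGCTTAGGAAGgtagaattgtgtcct
Ppfia1, 27 nt, chr7:151674596-151674622, minus strand: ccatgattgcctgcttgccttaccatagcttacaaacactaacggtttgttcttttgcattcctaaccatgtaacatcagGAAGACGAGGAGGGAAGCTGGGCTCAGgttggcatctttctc
Ppfia3, 27 nt, chr7:52598923-52598949, minus strand: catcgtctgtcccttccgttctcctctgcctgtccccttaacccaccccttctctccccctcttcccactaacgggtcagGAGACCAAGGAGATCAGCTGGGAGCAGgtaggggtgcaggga
Ppfibp2, 33 nt, chr7:114872230-114872262, plus strand: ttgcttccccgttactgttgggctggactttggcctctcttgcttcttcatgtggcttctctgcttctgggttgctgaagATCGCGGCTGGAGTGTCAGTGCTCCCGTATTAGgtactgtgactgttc
Ppfia2, 30 nt, chr10:106296833-106296862, plus strand: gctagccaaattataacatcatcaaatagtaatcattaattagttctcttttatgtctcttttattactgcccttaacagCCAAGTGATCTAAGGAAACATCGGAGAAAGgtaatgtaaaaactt
Ppfia2, 30 nt, chr10:106341873-106341902, plus strand: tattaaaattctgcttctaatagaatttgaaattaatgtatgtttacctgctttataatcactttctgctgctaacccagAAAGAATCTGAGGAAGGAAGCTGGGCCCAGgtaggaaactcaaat
Ppfibp1, 33 nt, chr6:146948184-146948216, plus strand: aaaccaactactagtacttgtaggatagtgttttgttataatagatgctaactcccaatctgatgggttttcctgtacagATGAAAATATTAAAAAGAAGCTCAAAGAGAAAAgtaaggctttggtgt
Ppfibp1, 30 nt, chr6:146961440-146961469, plus strand: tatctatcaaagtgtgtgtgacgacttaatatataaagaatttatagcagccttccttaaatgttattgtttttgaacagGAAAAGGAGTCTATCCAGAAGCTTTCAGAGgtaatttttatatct
Each of these exons is preceded by AG and followed by GT in the genome.

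The knockdown library was checked first for its target. Of every 1000000 read bases of a library, those on the RefSeq isoforms of Ptbp1 (coverage times isoform length) numbered 438.3 in control cells and 132.1 after knockdown, a log2 ratio of -1.73. Ptbp2 had a log2 ratio of 0.78 on this measure, 1.09 on all isoforms of its locus and 1.21 on reads of included exons. Ptbp3 had log2 ratios of -1.14, -0.70 and -0.69 on the same 3 measures, which are described with the expression of the liprin genes. Markers were read as a level per kilobase, the coverage summed over RefSeq isoforms and scaled to the same library total. Of 5 markers of neuroblastoma and neurons, 5 were above 0 in both libraries, and 4 reached a level of 1 in control cells and 3 after knockdown. Tubb3, Hand2 and Chga stood at 50.9 or more, Gata3 at 2.18 in control cells and 0.823 after knockdown, and Nefm below 0.05. Of 8 markers of astrocytes, leukocytes, hepatocytes, fibroblasts and endothelium, 7 had a value. Of these, 4 were above 0 in each library and none reached a level of 1 in either. Cd68 could not be matched to an isoform, although 3 of its exons were measured as included in both libraries. On all isoforms the endothelial marker Pecam1 had levels of 1.06 in control cells and 1.46 after knockdown. The control library held 377117500 trio reads and the knockdown library 304399667.

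Of the 184 liprin trios, 8 rose by 5 points or more and 4 fell by as much. Over all trios with the minimum of reads, 2.73% rose and 2.66% fell by 5 points or more. An exon can be the middle of several trios, so each distinct exon was next counted once, by its deepest trio. On this count 6 liprin exons rose and 4 fell. Junction reads were then used to give each exon an interval that covers counting error only. Reads on the upstream and downstream inclusion junctions were averaged, and the inclusion share was this average over its sum with the skipping reads, with 95% Wilson intervals for each library and a 95% Newcombe interval for the difference. The interval lay above 0 for 5 of the 6 rising exons and below 0 for 1 of the 4 falling exons. Of all exons, 0.748% rose and 0.701% fell with such an interval.

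Most liprin exons were included in nearly all transcripts, so the counts were also read among alternative exons, those with a PSI between 5 and 95 in at least 1 library. There were 18 in the liprin genes, of which 6 rose by 5 points or more, 4 fell and 8 moved by less. Over all alternative exons, 25.6% rose and 24.8% fell by 5 points or more. The median change was 1.6 points over the 18 liprin exons and -0.1 over all alternative exons. These genes were picked with such changes known, so the counts support nothing beyond the values themselves.

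**Figure D1:**
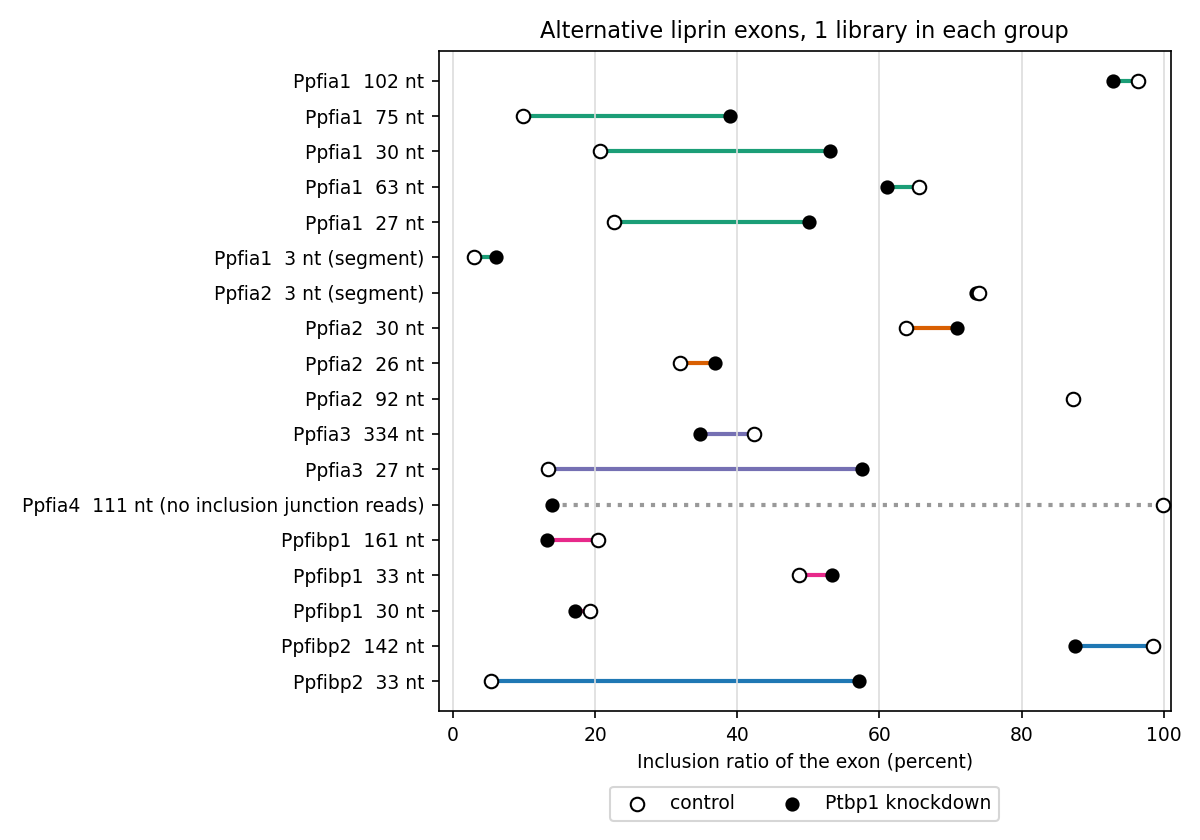
Corrected inclusion ratio in percent (x axis) of the 18 alternative liprin exons (rows, in transcript order within each gene), with open circles for the control library and filled circles for the knockdown library. Filled circles lie to the right of open ones by 27.5 points or more in 5 rows, and the dotted row is an exon of Ppfia4 with no inclusion junction reads in either library.

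Ppfia1 codes for liprin-α1, the member found in most tissues and studied at focal adhesions. Of its 31 measured exons 6 were alternative, and 3 of these rose. The exon of 30 nt had a PSI of 20.7 in control cells and 53.0 after knockdown, on 995 and 551 trio reads. Its skipping junction fell from 302 reads to 88, while its upstream junction had 21 and 23 reads and its downstream junction 78 and 97. The inclusion share from junctions was 14.1% (10.8 to 18.1) in control cells and 40.5% (33.0 to 48.6) after knockdown. The difference of 26.5 points had an interval of 17.9 to 35.1. The annotation includes this exon in 2 of 3 Ppfia1 transcripts.

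The Ppfia1 exon of 75 nt is the longest of the rising exons. Its PSI was 9.9 in control cells and 38.9 after knockdown. Skipping reads numbered 208 and 69, upstream junction reads 18 and 28, and downstream junction reads 19 and 47. The difference in the junction share was 27 points (17.6 to 36.9). The exon is annotated in 1 of 3 transcripts.

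The Ppfia1 exon of 27 nt lies nearer the 3′ end of the gene, between exons of 63 and 176 nt. Its PSI was 22.6 in control cells and 50.1 after knockdown. This trio covers only transcripts that contain the 63-nt exon. Reads joining the preceding 201-nt exon straight to the 176-nt exon numbered 157 and 92, against 62 and 33 to the 63-nt exon. The exon of 27 nt was the thinnest in reads of the rising Ppfia1 exons, with 14 downstream and 23 skipping reads in control cells and 24 and 10 after knockdown. No read was counted on its upstream junction in either library. The junction difference was 31.2 points with a wide interval of 4.66 to 53.0.

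The absence of reads on one side is common for short exons in these files. Of inclusion reads on exons of 36 nt or less, 82.8% of the control reads fell on the left junction in genome coordinates, against 50.1% for exons over 100 nt. The side that was empty in Ppfia1 and Ppfia3, both on the minus strand, and in the Ppfibp1 exon of 33 nt, on the plus strand, was the right one. With the larger inclusion junction in place of the average, 5 rises and 1 fall were again counted.

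Other Ppfia1 exons moved little. An exon of 102 nt had a PSI of 96.4 in control cells and 92.9 after knockdown, with a junction difference of -4.50 points (-10.3 to -0.00832). The exon of 63 nt had a PSI of 65.5 and 61.1, in a trio that takes the alternative exon of 27 nt as a flank. The skipping junction of that trio had 1 and 0 reads. It does not hold the reads that bypass both short exons, from the 201-nt to the 176-nt exon, which numbered 157 and 92.

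Ppfia3 codes for liprin-α3, a brain-enriched member. Its exon of 27 nt sits between exons of 63 and 176 nt, the same lengths as in Ppfia1. Its PSI was 13.3 in control cells and 57.5 after knockdown. Downstream inclusion reads numbered 7 and 39, and skipping reads 30 and 18. The junction share was 10.4% (3.90 to 25.1) in control cells and 52.0% (36.6 to 67.0) after knockdown, so these intervals do not overlap. The difference was 41.6 points (20.3 to 58.0). The exon is coding in 2 of 7 annotated transcripts.

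A second alternative exon of Ppfia3, of 334 nt at chr7:52608700-52609033, is in 1 annotated transcript and is not coding there. Its PSI was 42.3 in control cells and 34.7 after knockdown, a change of -7.6 points. Its junction reads were the same in both libraries, with 52 on the upstream junction, 4 on the downstream junction and 8 on the skipping junction. The junction difference was thus 0 (-19.0 to 19.0), and no change was detectable from these reads.

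Ppfibp2 codes for liprin-β2. Its exon of 33 nt showed the widest change of the liprin exons whose junctions were read. Its PSI was 5.4 in control cells and 57.1 after knockdown, on 1050 and 770 trio reads. Skipping reads fell from 472 to 141, while upstream inclusion reads went from 19 to 127 and downstream reads from 20 to 124. The junction share was 3.97% (2.57 to 6.08) in control cells and 47.1% (41.2 to 53.1) after knockdown. The difference was 43.1 points (36.8 to 49.3), and the change in corrected PSI, 51.7, lies above this interval. Of 2 annotated transcripts 1 includes the exon.

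The only fall of 5 points or more with an interval below 0 was in the Ppfibp2 exon just before it, of 142 nt at chr7:114871158-114871299. Its PSI was 98.5 in control cells and 87.5 after knockdown, and its junction difference was -3.32 points (-7.17 to -0.746). The change in PSI, -11 points, lies outside this interval, and the junction difference itself is under 5 points. Its skipping reads were 5 and 9. In this trio the downstream flank is the exon after the 33-nt exon, so its downstream junction is the one that skips the 33-nt exon, and that junction had 531 and 160 reads. The deposited tables count junction reads for each trio separately, and the same junction had 472 and 141 reads in the trio of the 33-nt exon. In the other trio of this exon, whose downstream flank is the 33-nt exon, the PSI was 0.0 in both libraries although 339 and 227 reads joined it upstream and none skipped it. The PSI of this exon therefore depended on which trio was read, while its skipping reads were few in each. A Ppfibp2 exon of 97 nt accounted for 2 further rising trios. Both went up by 5.7 points, from 18.7 to 24.4 and from 25.6 to 31.3, with at most 1 skipping read, and its deepest trio stood at 99.9 in both libraries.

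**Figure D2:**
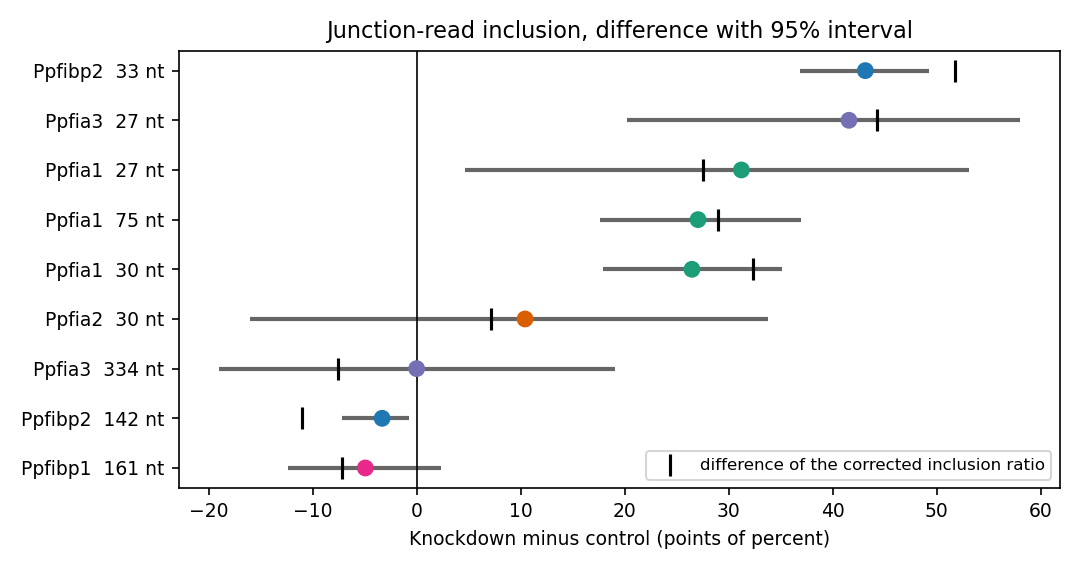
Difference between libraries in points of percent (x axis, knockdown minus control) for the 9 liprin exons that changed by 5 points or more and had junction reads in both libraries. Coloured circles are junction shares with their 95% Newcombe intervals as grey bars and black ticks are differences of the corrected inclusion ratio. The bars of 5 exons lie above 0 and that of the Ppfibp2 exon of 142 nt lies below it.

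Ppfia2 codes for liprin-α2, also a brain-enriched member. Its late exon of 30 nt corresponds to the 27-nt exons of Ppfia1 and Ppfia3 by position, between exons of 63 and 194 nt. Its PSI was 63.8 in control cells and 70.9 after knockdown, a change of 7.1 points. Upstream inclusion reads numbered 25 and 20, downstream reads 11 and 8 and skipping reads 14 and 7. The junction difference of 10.4 points had an interval of -16.0 to 33.8, so a change in either direction is within the counting error. A form of the same exon that starts 4 bases later, of 26 nt, had a PSI of 32.0 and 36.8. The 2 forms share their skipping reads, and the shorter form had 4 and 2 upstream reads. The earlier Ppfia2 exon of 30 nt was included at 99.9 in both libraries, with 125 and 108 upstream reads and no skipping read in either library. A Ppfia2 exon of 92 nt had a PSI of 87.3 in both.

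Ppfibp1 codes for liprin-β1. Its short exons were alternative in both libraries and moved by less than 5 points. The exon of 33 nt had a PSI of 48.7 in control cells and 53.3 after knockdown, with 413 and 338 upstream inclusion reads and 383 and 258 skipping reads. Its junction difference of 4.55 points had an interval of -1.45 to 10.6. The exon of 30 nt had a PSI of 19.3 and 17.2, with 279 and 216 skipping reads, and a junction difference of -1.60 points (-7.19 to 4.26). The upper bounds of these 2 differences lie below the lower bounds of the differences in the Ppfibp2 exon and in the Ppfia1 exons of 30 and 75 nt. A Ppfibp1 exon of 161 nt at chr6:146866270-146866430, which lies in no exon of the 9 annotated transcripts, had a PSI of 20.4 and 13.2. Its junction difference of -4.93 points had an interval of -12.3 to 2.38.

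Ppfia4, which codes for liprin-α4, was at the edge of detection. Its 2 trios with enough reads had 30 in control cells and 33 after knockdown. The trios left out had at most 6 reads in control cells and 13 after knockdown. The 111-nt exon at chr1:136195603-136195713, partly coding in 1 of 2 transcripts, had a corrected PSI of 99.9 in control cells and 13.9 after knockdown. This value cannot be read as a change, since the control library had no junction read, the knockdown library had 2 skipping reads and no inclusion read, and the PSI before correction was 0.1 in both. The trio of the Ppfia4 exon of 27 nt had 0 and 2 reads, and that of its exon of 36 nt had 2 and 5.

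Most of the rising exons were short. Among cassette and constitutive class exons, 9 liprin exons were of 36 nt or less, and 8 of them were alternative. The late Ppfia2 exon is counted here in both its forms, of 30 and 26 nt, which share their skipping reads. Of these 8, 5 rose by 5 points or more and 4 did so with an interval above 0, while none fell by as much. Over all alternative exons of these classes and of this length, 36.3% rose with an interval above 0. Of the 138 longer liprin exons 8 were alternative, 1 rose, 4 fell and 133 moved by less than 5 points. The other 4 measured segments, used through alternative acceptors or donors, all moved by less than 5 points. The length of 36 nt was set with the values known.

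**Figure D3:**
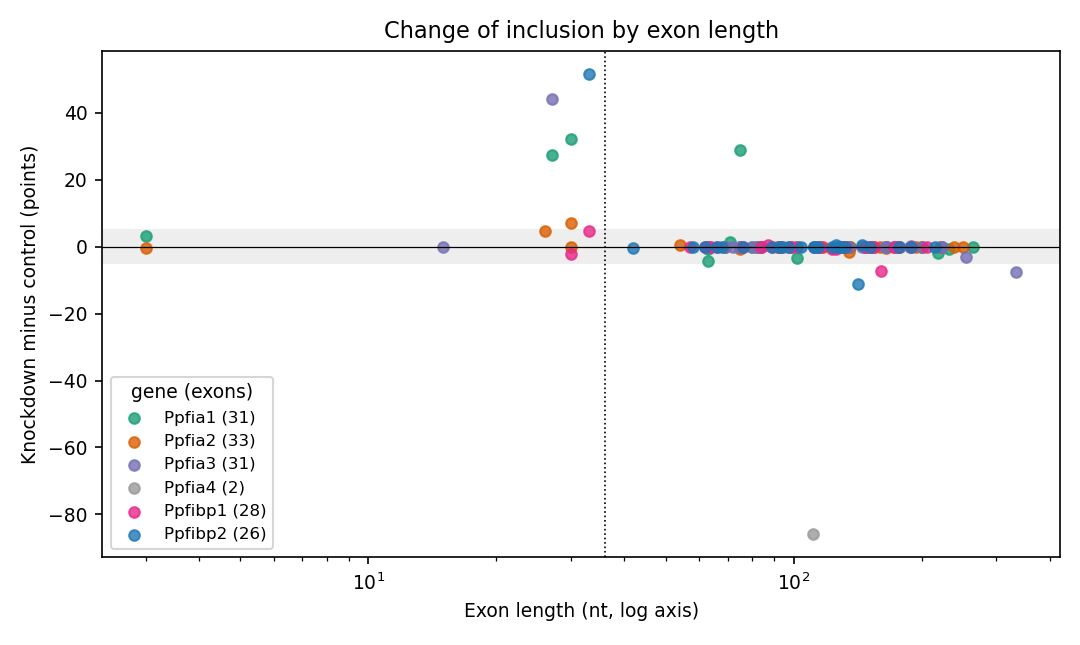
Change in corrected inclusion ratio (y axis, knockdown minus control, in points) against exon length in nt (x axis, log scale) for the 151 liprin exons, coloured by gene with the number of exons in the legend. The dotted line marks 36 nt and the grey band spans 5 points on each side of 0. Rises lie at or left of the line except for the Ppfia1 exon of 75 nt, and the lone point near the bottom is the Ppfia4 exon of 111 nt that had no inclusion junction reads.

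The late short exon is shared by position among the liprin-α genes, each time after an exon of 63 nt. The 63-nt exons of Ppfia1 and Ppfia3 were 71.4% identical in sequence, their short exons 66.7% (18 of 27 bases) and the exons after them 83.5%. The Ppfia1 and Ppfia2 short exons matched at 23 of 30 aligned positions and the Ppfia2 and Ppfia3 exons at 17 of 30. The rise was 27.5 points in Ppfia1 and 44.2 in Ppfia3, and their intervals (4.66 to 53.0 and 20.3 to 58.0) overlap. In Ppfia2 the exon was already included at 63.8 in the control library, against 22.6 and 13.3. The Ppfia1 values cover only transcripts with the 63-nt exon, which other transcripts of that gene bypass. The 63-nt exon before the short exon had a PSI of 99.9 in both libraries in Ppfia2 and Ppfia3. Their trios of this exon take the short exon as a flank, so they hold no reads that bypass both exons. Whether transcripts of Ppfia2 and Ppfia3 bypass both was thus not measured, and the Ppfia1 values cannot be taken as a like measure. The earlier 30-nt exons of Ppfia1 and Ppfia2 were 80.0% identical (24 of 30 bases), yet had a PSI of 20.7 and 99.9 in the control library. Ppfia4 has an exon of 36 nt at this place, which had too few reads.

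The 100 bases before each exon were then read on the gene's strand. Pyrimidines made up 69.0% of this window for the Ppfia1 exon of 30 nt, 72.0% for that of 75 nt, 61.0% for that of 27 nt, 73.0% for the Ppfia3 exon and 69.0% for the Ppfibp2 exon. The median was 56.0% over 8404 alternative exons of all genes and 61.0% over the 455 of them of 36 nt or less. Of the alternative windows, 3.69% were at or above the value of the Ppfia3 exon and 26.9% at or above that of the Ppfia1 exon of 27 nt. The 6 alternative liprin exons of the cassette and constitutive classes that moved by less than 5 points had a median of 55.5%. They include the 26-nt form of the late Ppfia2 exon, at 54.0%, whose 30-nt form rose by 7.1 points. That 30-nt form stood at 56.0%, the earlier Ppfia2 exon at 58.0% and the Ppfibp1 exons of 33 and 30 nt at 51.0% and 54.0%. A high value did not always go with a rise, since the Ppfia1 exons of 63 and 102 nt stood at 64% and 63%.

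The motif TCTT, which PTBP1 is known to bind as UCUU, was counted on the gene's strand with overlaps allowed. It occurred 3 times before the Ppfia1 exon of 30 nt, 4 times before that of 75 nt, once before that of 27 nt, once before the Ppfia3 exon and 5 times before the Ppfibp2 exon. At least 1 copy was present in 65.0% of the windows of all 106700 exons with an upstream intron of 100 bases or more, in 63.2% of those of alternative exons and in 78% of those of short alternative exons. It was absent before the late Ppfia2 exon and the Ppfibp1 exon of 33 nt. Exons that did not rise had copies too, with 2 before the earlier Ppfia2 exon, 3 before the Ppfia1 exon of 102 nt and 2 before the Ppfibp2 exon of 142 nt. The motif CTCTCT occurred before the Ppfia1 exon of 30 nt and the Ppfibp2 exon of 33 nt once each, which is 40% of the 5 rising exons. It also occurred once each before the Ppfia1 exons of 63 and 102 nt, the Ppfia2 exon of 92 nt and the Ppfibp2 exon of 142 nt. Of the 6 alternative liprin exons that moved by less than 5 points 50% held it, against 10.9% of all alternative windows. The TCTT and CTCTCT motifs can overlap. These are matches of letters and not measured binding sites.

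**Figure D4:**
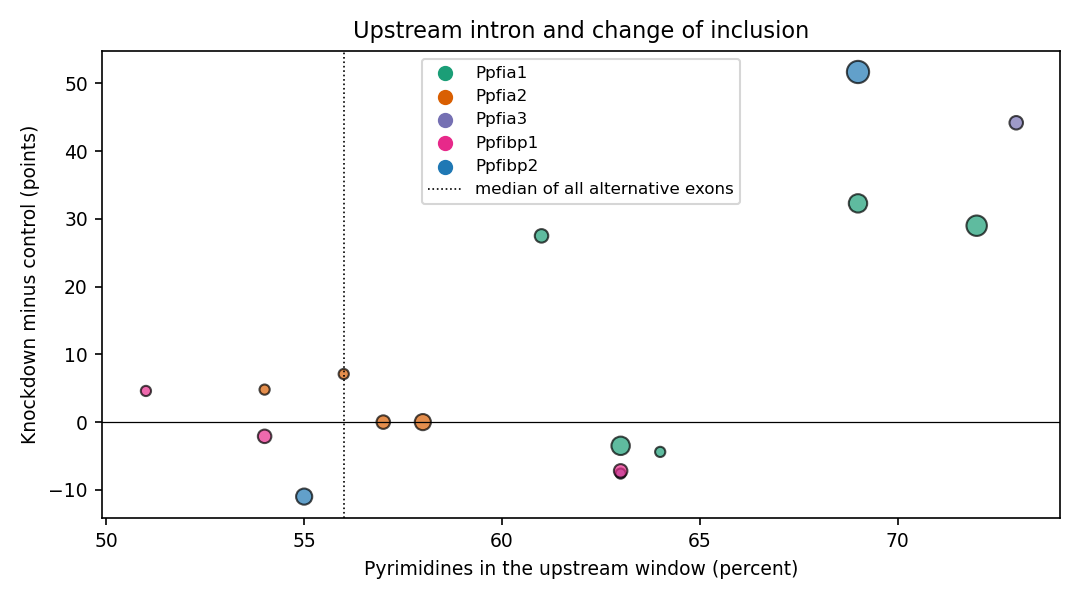
Change in corrected inclusion ratio (y axis, in points) against the percent of pyrimidines in the 100 bases upstream (x axis) for alternative and short liprin exons, coloured by gene, with larger circles for more TCTT copies. The dotted line is the median of all alternative exons (56.0%), the 5 exons that rose with an interval above 0 lie at 61.0% or above, and the Ppfia4 exon is not drawn.

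Gene expression was next compared by the read bases on RefSeq isoforms, the coverage times the isoform length, per 1000000 read bases of the library. Ppfia1 had 39.2 in control cells and 16.6 after knockdown, a log2 ratio of -1.24. Ppfia3 went the other way, with 4.20 and 8.22 and a log2 ratio of 0.97. Ppfibp2 had 62.6 and 36.5 and a log2 ratio of -0.78. Ppfia2 (15.3 and 21.3, log2 ratio 0.47) and Ppfibp1 (184.8 and 163.8, log2 ratio -0.17) stayed within 1.5-fold. Ppfia4 was listed at 0 in both libraries. Thus 1 of 5 liprin genes with a value was higher by 1.5-fold or more and 2 were lower, where 25.2% of all genes were higher and 11.7% lower on this measure. In bulk RNA a smaller number of cells with a transcript and less of it in each cell cannot be told apart.

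Transcripts had been assembled in each library on its own, and reads given to assembled isoforms are missing from the RefSeq sum. In Ppfia1 the share of read bases outside RefSeq isoforms was 54.9% in control cells and 69.7% after knockdown. In Ppfibp2 it was 46.7% and 66.6%, and in Ppfia3 75.7% and 67.6%. With all isoforms of the locus, a measure added after seeing the data, Ppfibp2 had 117.3 and 109.1 of every 1000000 read bases and a log2 ratio of -0.10. Its call was therefore lost. The log2 ratio was -0.67 for Ppfia1, from 86.9 and 54.7, and 0.55 for Ppfia3, from 17.3 and 25.3. No liprin gene was then higher by 1.5-fold and 1, Ppfia1, was lower, where 23.4% of genes were higher and 4.98% lower. This call of Ppfia1 rests on the weighting by isoform length. Per kilobase, as coverage summed over all isoforms, Ppfia1 had levels of 16.7 and 11.7 and a log2 ratio of -0.52, which is within 1.5-fold.

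Trio reads gave a further measure that needs no assembled isoform, also added after seeing the data. It was the median ratio of reads over the exons of a gene with a PSI above 95 in both libraries, scaled to the trio reads of each library. Ppfia1 had a log2 ratio of -0.61 over 24 such exons and Ppfia3 of 0.64 over 27. The others were 0.33 for Ppfia2, -0.13 for Ppfibp1 and -0.08 for Ppfibp2. On this measure 1 liprin gene was higher by 1.5-fold and 1 was lower, where 13.8% of genes were higher and 1.57% lower. Ppfia1 was lower and Ppfia3 higher in direction under all 3 measures, and Ppfia1 was past 1.5-fold in each of these 3 but not per kilobase on all isoforms.

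**Figure D5:**
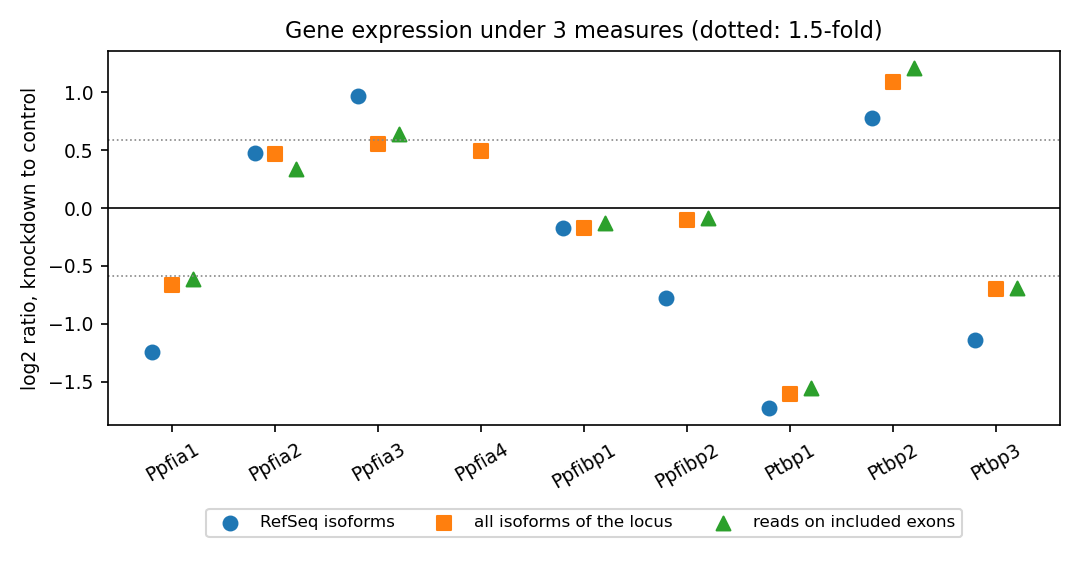
Log2 ratio of knockdown to control (y axis) of the 6 liprin genes and the 3 PTB genes (x axis) on RefSeq isoforms, on all isoforms of the locus and on reads of included exons. Dotted lines mark 1.5-fold. The Ppfibp2 circle lies below the lower line at -0.78 while its other marks lie at -0.10 and -0.08, and Ppfia4 has a mark on all isoforms only.

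By level per kilobase on all isoforms in the control library, the order was Ppfibp1 (38.1), Ppfibp2 (37.7), Ppfia1 (16.7), Ppfia2 (4.18), Ppfia3 (3.66) and Ppfia4 (0.0465). In the knockdown library Ppfibp2 (35.2) stood above Ppfibp1 (33.7), and the others kept their places. Without replicates it cannot be said which neighbours in this order differ.

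Genes whose proteins bind liprins or sit with them at the active zone or the cell cortex were counted from a list of 28. Exons were measured in 21 of them, 487 exons in all, of which 57 were alternative. Of the 487, 20 in 12 genes rose by 5 points or more with an interval above 0 (4.11%) and 6 in 5 genes fell with an interval below 0 (1.23%), where 0.748% and 0.701% of all exons did so. Among the 20, 19 had a length divisible by 3, as had 65% of the 898 exons of all genes that rose in this way. Of the 20, 10 were of 36 nt or less, a length set with the values known. Of the 898, 170 were alternative exons of the cassette and constitutive classes of that length. The list was made with earlier results known, so its counts are a description too.

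Among partner exons with an interval above 0, the 5 with the widest rise in PSI were of Clasp2, Unc13a, Erc2, Phldb1 and Clasp1. A 24-nt exon of Clasp2, which codes for a microtubule plus-end protein, had a PSI of 23.3 in control cells and 98.1 after knockdown, on 3 and 1 skipping reads. Its junction difference was 39.3 points (8.94 to 71.6), and the change in PSI of 74.8 lies outside this interval. For the other exons the brackets hold the interval of the junction difference, which is not that of the change in PSI. A 30-nt exon of Unc13a, a priming factor of synaptic vesicles, went from a PSI of 47.1 to 86.4 (30.4 to 54.2). A 36-nt exon of Erc2, an active zone protein, went from 13.4 to 48.6 (10.9 to 51.5). The 141-nt exon of Phldb1, a cortical protein, went from 20.7 to 55.7 (25.1 to 40.6), and a 27-nt exon of Clasp1 from 21.6 to 55.5 (16.8 to 38.6).

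Exons of partner genes also fell, and brackets again hold the interval of the junction difference. A 15-nt segment of Cask, a scaffold kinase of synapses, went from a PSI of 63.3 to 32.5 (-38.5 to -15.5). The 579-nt exon of Ptprf, which codes for the LAR receptor, went from 98.9 to 76.0 (-31.0 to -20.2). An 84-nt exon of Erc1, a binding partner of liprin-α, went from 23.9 to 6.6 (-23.5 to -10.6). A 78-nt exon of Rims2, an active zone protein, went from 42.5 to 31.6 (-16.6 to -0.232), and a 208-nt exon of Mical3 from 97.9 to 87.9 (-16.8 to -0.447).

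Partner gene expression on RefSeq isoforms was higher by 1.5-fold or more in 4 of 15 genes with a value and lower in 2, counts near the 25.2% and 11.7% of all genes. Of these, Clasp2 (log2 ratio 3.14), Syde2 (1.62) and Caskin1 (1.10) had 50 expected fragments or more (read bases over 200), as had Cask (-1.40) and Clasp1 (-0.82). With all isoforms of the locus only Caskin1 of these 5 kept a ratio past 1.5-fold (1.49), and the others lay at 0.09 for Clasp2, 0.04 for Syde2, -0.13 for Cask and -0.09 for Clasp1. On that measure 6 of 23 partner genes were higher and none was lower, where 23.4% and 4.98% of all genes were, and the median was 0.22 against 0.15 over all genes. The 6 were Unc13b (1.64), Caskin1 (1.49), Mical3 (1.06), Bsn (0.98), Unc13a (0.74) and Phldb2 (0.69). Bsn codes for the active zone protein Bassoon. Unc13b had only 4.56 expected fragments in control cells and 11.6 after knockdown.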

How the data were processed

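RNA of N2A cells was sequenced as strand-specific paired reads of 100 bases from 1 control and 1 Ptbp1 knockdown library. The authors ran SpliceTrap and deposited, for each exon trio on mm9, an inclusion fraction, both uncorrected and corrected by its model, the count of reads on each junction without normalization, and the coverage of the trio in reads per 100 nucleotides. With Cufflinks, named in the submitters' processing notes beside CASAVA and TopHat with no version, the authors deposited FPKM and the coverage of isoforms, in a table made separately for each library. Columns of the deposited files that hold sample values were all from these 2 libraries.

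PSI was the corrected fraction times 100, and trio reads were coverage times summed exon size over 100. A trio needed 20 reads in each library, and a change was called at 5 points, the threshold the study used. Intervals (95%) and sequence counts were computed in Python 3.11.15 with pandas 2.3.3, SciPy 1.17.1, pysam 0.24.0 and Biopython 1.88, on genome NCBIM37 with GENCODE vM1. The intervals were tested on simulated junction reads with equal counts on both inclusion junctions. That test did not cover the uneven junction reads of short exons. Expression was coverage times length over RefSeq isoforms, scaled to the library total, with no pseudocount. RefSeq names were matched to symbols for 95.9% of isoforms, and 39.6% and 41.8% of read bases lay on assembled isoforms. The median log2 ratio of expressed genes was 0.04 on RefSeq isoforms and 0.08 on all isoforms. FPKM served in alternatives alone.

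Named were all liprin genes, each liprin exon that changed by 5 points or more, and for partner genes up to 5 exons and genes in each direction, the genes past 1.5-fold with an expected 50 fragments. The partner genes higher on all isoforms, those named under gene-level FPKM and the liprin exons under 5 points were named after their values were seen. The members and lists were chosen with earlier results of these data known. Part of the marker list is not reported here.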

Additional observations from a re-analysis of the deposited data

How the results depend on the processing

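With 1 library in each group no replicate could be left out, and intervals cover counting error only. The counts of 5 rising and 1 falling liprin exon with an interval on that side of 0 were the same with 50 reads, any trio of an exon, the larger inclusion junction or a threshold of 10 points. The size of the 1 fall, in the Ppfibp2 exon of 142 nt, did move. It was -11 points in PSI, -3.3 by junction reads alone, -2.9 by the larger inclusion junction and -5.5 as the mean over its trios. Rising trios (8) became 5 at a threshold of 10 points and 3 in the cassette class alone. Falling trios (4) became 2 at a threshold of 10 points and 2 in the cassette class alone. By junction reads alone 1 trio fell by 5 points or more, and it was none of these 4. It was that of a Ppfia3 exon of 255 nt, with a PSI of 99.9 in control cells and 96.8 after knockdown. Its junction difference of -6.15 points had an interval of -19.9 to 7.89.

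Expression depended on the measure. Higher liprin genes (1) became 0 with gene-level FPKM at either pseudocount, 0 with all isoforms of the locus, 0 per kilobase on all isoforms and 0 at a 2-fold threshold. Lower liprin genes (2) became 0 per kilobase on all isoforms, and 1 under the others of these and by trio reads. Higher partner genes (4) became 7 with gene-level FPKM. These 7 include Grip2, Kif1a and Unc13b, which had at most 11.6 expected fragments in either library, and Grip2 and Kif1a had 0 in control cells. Lower partner genes (2) became 0 with all isoforms on either scale, 0 by trio reads and 1 at 2-fold. Ptbp1 moved from -1.73 to -1.61 with gene-level FPKM, -1.83 with the sum of isoform FPKM, -1.61 with all isoforms, -1.56 by trio reads, and per kilobase to -1.63 on RefSeq and -1.41 on all isoforms. Among genes with a minimum depth the background was 21.1% higher and 11.0% lower. The cause was not tested. All isoforms, trio reads, the per-kilobase scale and the alternatives for partner exons were chosen after seeing the data. No liprin value that was called changed its direction. No paired analysis was possible because each group held 1 library.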
